A study of Mus musculus with 3 samples.

Results

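A set of 10 genes of antigen presentation were followed in the RNA that cardiac endothelial cells of mice held on their ribosomes. They were chosen by symbol and were H2-K1, H2-D1, H2-T23, B2m, Tap1, Tap2 and Tapbp of the class I pathway, and Cd74, H2-Aa and H2-Ab1 of the class II pathway. All 10 were among the 17583 genes of the deposited table. The 3 libraries came from 3 mice of a single group, for which the labels give the genotype Cdh5-CreERT2;Rpl22tm1.1Psam (EC-RiboTag) and day 7 after coronary ligation. Both alleles were thus present in every mouse: Cdh5-CreERT2 is a tamoxifen-inducible Cre recombinase driven by the promoter of the endothelial cadherin Cdh5, and the Rpl22 allele yields, after recombination, a ribosomal protein with a hemagglutinin tag by which ribosomes and their RNA were immunoprecipitated. The study's methods describe induced mice on a C57BL/6 background and mention no infarction for this experiment, the labels give no age or sex, and the letters Rz of the library names are not explained in them. For a separate measurement on EC-RiboTag hearts at the same day after infarction, a supplementary legend uses RZ for the remote zone, but whether the sequenced RNA came from that zone is not stated. No input, untreated or other control library was analysed here, so levels are described within a single condition. Mouse 1 stood apart from mice 2 and 3: Xist had 4, 618 and 869 normalized counts in mice 1, 2 and 3, and the Y-linked gene Ddx3y had 1080, 3 and 1. With a single such mouse, whatever lies behind this difference cannot be told apart from other differences of mouse 1. In such bulk RNA, fewer cells of a type and less RNA per cell cannot be told apart.

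Class I molecules display peptides made in the cytosol to CD8 T cells and natural killer cells on nearly all nucleated cells. Proteasomes cut the peptides, the transporter formed by Tap1 and Tap2 carries them into the endoplasmic reticulum, and tapasin, encoded by Tapbp, holds the transporter next to the empty class I molecule, which consists of a heavy chain and beta-2 microglobulin. Class II molecules are heterodimers of an alpha and a beta chain that reach the endosome with the invariant chain Cd74 and present extracellular peptides to CD4 T cells, chiefly on dendritic cells, B cells and macrophages. Endothelial cells carry class I constitutively, and their class II can be induced by interferon gamma.

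The class I heavy chains are near copies of each other, and reads that map to several places had been removed by the authors before counting, so the sequences are shown first. The H2-K1 gene lies at chr17:34214991-34219321, H2-D1 at chr17:35481706-35486475 and H2-T23 at chr17:36340665-36343747 (GRCm39). Within coding exon 4, which encodes the membrane-proximal alpha-3 domain, bases 46 to 218 of the exon are printed below for the 3 chains, 5′ to 3′ in the direction of transcription, with every base that differs from H2-K1 in capitals.
H2-K1, chr17:34216317-34216489, minus strand: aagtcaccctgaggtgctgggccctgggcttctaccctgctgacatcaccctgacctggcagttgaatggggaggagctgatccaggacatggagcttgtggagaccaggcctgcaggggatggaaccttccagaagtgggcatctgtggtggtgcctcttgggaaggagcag
H2-D1, chr17:35484805-35484977, plus strand: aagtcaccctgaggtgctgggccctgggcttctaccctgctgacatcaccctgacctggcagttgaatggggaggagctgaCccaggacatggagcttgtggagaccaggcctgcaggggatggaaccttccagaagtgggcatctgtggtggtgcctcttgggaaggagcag
H2-T23, chr17:36341772-36341944, minus strand: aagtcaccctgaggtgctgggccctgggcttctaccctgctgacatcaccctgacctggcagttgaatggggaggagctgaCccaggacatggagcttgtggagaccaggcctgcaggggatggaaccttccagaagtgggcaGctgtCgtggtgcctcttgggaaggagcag
H2-D1 differed from H2-K1 at 1 of these 173 bases and H2-T23 at 3. The unbroken runs on either side of the H2-D1 difference were 81 and 91 bases long, longer than the 72 bases of a read. Coding exon 3, which encodes the alpha-2 domain of the peptide groove, held more differences, as its bases 103 to 174 show in the same notation.
H2-K1, chr17:34218347-34218418, minus strand: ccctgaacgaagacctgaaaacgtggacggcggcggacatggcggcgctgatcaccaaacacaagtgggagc
H2-D1, chr17:35482917-35482988, plus strand: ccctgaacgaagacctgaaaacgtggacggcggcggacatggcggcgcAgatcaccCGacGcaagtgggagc
H2-T23, chr17:36342632-36342703, minus strand: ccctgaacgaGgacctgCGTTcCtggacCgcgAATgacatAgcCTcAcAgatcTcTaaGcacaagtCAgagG
In this stretch H2-D1 differed from H2-K1 at 4 of 72 bases and H2-T23 at 21. Over all 276 bases of coding exon 4, H2-D1 was 96.0% and H2-T23 95.3% identical to H2-K1. Over coding exon 3 the identity was 88.0% for H2-D1 and 70.7% for H2-T23, and over the 270 bases of coding exon 2, which encodes the alpha-1 domain, it was 91.1% and 86.7%.

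A read is lost to this filter where its whole sequence recurs. Of the 1548 windows of 72 bases in the canonical H2-K1 transcript, 30 (1.94%) had an exact copy elsewhere. Copies were sought in the genome and in the spliced canonical transcripts of the other genes of the table. All 30 lay in coding exon 4 and all recurred in H2-D1, 28 of them also in H2-Q1. H2-D1 had 158 such windows of 2046 (7.72%), and 146 of these recurred in another H2 gene, 74 of them in H2-T23. H2-T23 had 273 of 1401 (19.5%), of which 156 recurred in another H2 gene and 117 elsewhere. Among the other members, Tapbp had 1.38% of its windows copied, Tap1 0.0989% and Tap2 0.0768%, and B2m, Cd74, H2-Aa and H2-Ab1 had none. Over 5% of windows were copied for 2 of the 10 members, H2-D1 and H2-T23, against 13.7% of the 17468 genes with a canonical transcript of at least 72 bases. With windows of 50 bases, which stand for shortened reads, the shares were 8.79% for H2-K1, 14.9% for H2-D1 and 34.8% for H2-T23. Exact copies are the least that is lost, since an aligner that allows mismatches can place further reads in several genes. Reads of alleles other than those of the reference genome were not examined.

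**Figure D1:**
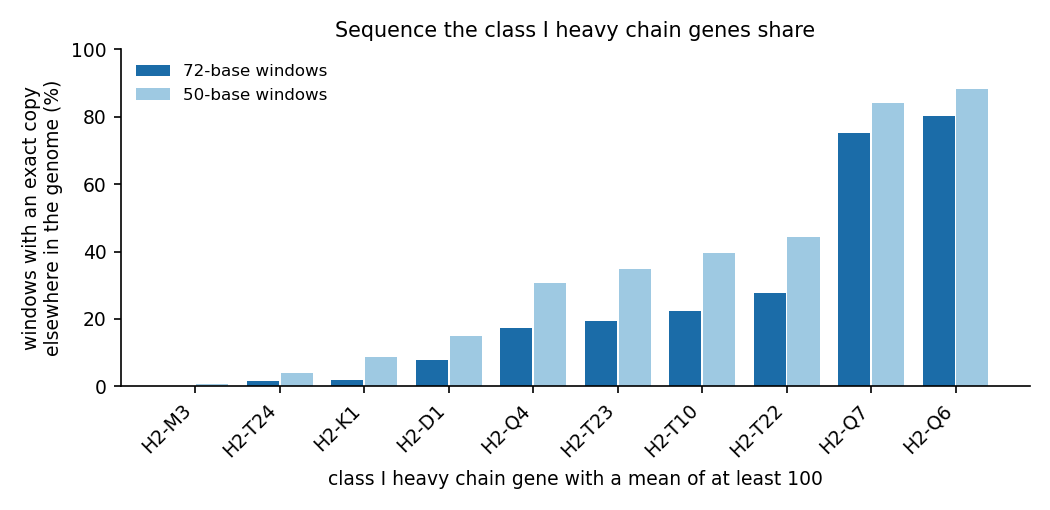
Share of windows of 72 bases (dark bars) and 50 bases (light bars) of each canonical transcript that have an exact copy elsewhere, in percent, for the 10 class I heavy chain genes of the H2 family with a mean normalized count of at least 100. H2-K1 stood at 1.94% and H2-D1 at 7.72% with 72 bases, whereas H2-Q7 and H2-Q6 stood at 75.2% and 80.1%.

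The classical heavy chains H2-K1 and H2-D1, which present peptides to CD8 T cells, were among the abundant transcripts. H2-K1 had 1428, 1513 and 1323 normalized counts in mice 1, 2 and 3 (1421 ± 95.2, SD, n = 3). H2-D1 had 1568, 1664 and 1478 (1570 ± 93.0, SD, n = 3). Both were highest in mouse 2 and lowest in mouse 3. Per kilobase of the canonical transcript, the measure used to compare genes, H2-K1 stood at 878 ± 58.8 and H2-D1 at 742 ± 43.9 (SD, n = 3), which are ranks 26 and 91 of the 17475 genes with a length. The log2 ratio of H2-K1 to H2-D1 was 0.25, 0.25 and 0.23 in the 3 mice (0.24 ± 0.01, SD), with p = 0.25 in an exact two-sided sign-flip permutation test within mice, the smallest value that 3 mice allow, and 0.40 after Benjamini-Hochberg adjustment over the 8 pairs examined. The order of this pair rested on the length used: with no division by length the log2 ratio was -0.14 and with the coding length -0.17. The canonical H2-D1 transcript of 2117 bases is longer than that of H2-K1 with 1619, and the coding lengths are 1086 and 1107.

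H2-T23 encodes Qa-1, a non-classical heavy chain that mainly presents leader peptides of other class I chains to receptors of natural killer cells. It had 764, 722 and 626 normalized counts (704 ± 70.7, SD, n = 3), again lowest in mouse 3 but highest in mouse 1. H2-K1 exceeded it per kilobase by a log2 ratio of 0.88 ± 0.10 (SD, n = 3), a 1.84-fold difference in the same direction in all 3 mice (exact sign-flip permutation p = 0.25, adjusted 0.40). H2-T23 had the largest copied share of the members, and dividing by windows without a copy instead of length gave a log2 ratio of 0.59.

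B2m, at chr2:121978167-121983564, encodes the light chain common to these heavy chains and to the class I-like molecules. It had 786, 831 and 760 normalized counts (792 ± 35.9, SD, n = 3), a narrow spread in which mouse 3 was again lowest. Its level per kilobase, 730 ± 33.1, ranked 101, next to that of H2-D1. The log2 ratio of B2m to the sum of H2-K1 and H2-D1 was -1.16, -1.17 and -1.11 in the 3 mice (-1.15 ± 0.03, SD), so that the light chain stood at 0.451 times the summed classical heavy chains (exact sign-flip permutation p = 0.25, adjusted 0.40). The size of this ratio rested on the length used, with a log2 ratio of -0.30 for the coding length, 357 bases in B2m, and -1.92 with no division by length. Counted after duplicate reads had been removed, B2m had 0.730 reads per base of canonical transcript, H2-D1 0.742 and H2-K1 0.878. The part of that removal in the ratio was not tested.

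The transporter and its tapasin partner lie together on chromosome 17, Tapbp at chr17:34134873-34148266, Tap1 at chr17:34406527-34416199 and Tap2 at chr17:34422501-34435295. Tap1 had 824, 923 and 719 normalized counts (822 ± 102, SD, n = 3), the widest relative spread of the members with a coefficient of variation of 12.4%. Tap2 had 1115, 1093 and 933 (1047 ± 99.3, SD, n = 3). Mouse 3 was lowest for each subunit, and mouse 1 stood close to mouse 2 for Tap2 but not for Tap1. Per kilobase of canonical transcript the subunits were level: 265 ± 32.9 for Tap1 and 263 ± 25.0 for Tap2 (SD, n = 3), with log2 ratios of -0.08, 0.11 and -0.02 (mean 0.00 ± 0.10, exact sign-flip permutation p = 1). This too belongs to the canonical lengths, since Tap1 was below Tap2 in every mouse with no division by length (log2 ratio -0.35), with the coding length (-0.40) and with all annotated exons (-0.69). Tapbp had 1682, 1689 and 1531 normalized counts (1634 ± 89.3, SD, n = 3), the most of any member before division by length. Its level per kilobase, 549 ± 29.98, was 2.08-fold that of Tap1, with log2 ratios of 1.09, 0.93 and 1.15 (1.06 ± 0.11, SD, n = 3, exact sign-flip permutation p = 0.25, adjusted 0.40).

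The class II chains form the antigen-presenting molecule I-A. H2-Aa, the alpha chain at chr17:34501718-34506797, had 208, 223 and 232 normalized counts (221 ± 12.1, SD, n = 3). H2-Ab1, the beta chain at chr17:34476663-34488393, had 224, 242 and 241 (236 ± 10.1, SD, n = 3). The invariant chain Cd74, on chromosome 18 at 60936920 to 60945724, had 265, 295 and 279 (280 ± 15.01, SD, n = 3). All 3 genes were lowest in mouse 1, and the values of mice 2 and 3 lay close together.

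Per kilobase the 3 class II genes were level with each other, at 196 ± 10.7 for H2-Aa, 195 ± 10.5 for Cd74 and 194 ± 8.35 for H2-Ab1 (SD, n = 3). The log2 ratio of H2-Ab1 to H2-Aa was -0.01 ± 0.03, with mice between -0.05 and 0.01, and that of Cd74 to H2-Aa was -0.00 ± 0.07, with mice between -0.08 and 0.06 (exact sign-flip permutation p = 1 for each pair). This evenness also belongs to the canonical lengths of 1128 bases for H2-Aa, 1431 for Cd74 and 1212 for H2-Ab1, since with no division by length the log2 ratio was 0.09 for H2-Ab1 and 0.34 for Cd74 to H2-Aa, above 0 in each mouse.

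**Figure D2:**
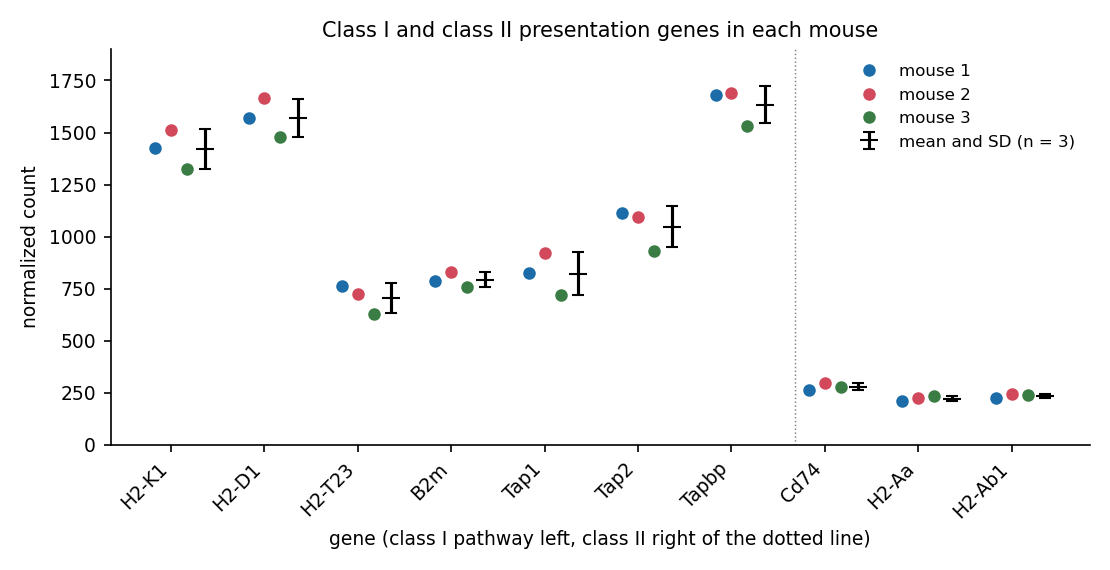
Normalized counts (linear axis from 0) of the 10 genes in mice 1, 2 and 3, with the mean and SD over the 3 mice in black. The 7 class I pathway genes, left of the dotted line, lie between 626 and 1689, and the 3 class II genes lie between 208 and 295.

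Class I stood above class II in every mouse. The summed classical heavy chains H2-K1 and H2-D1 exceeded the summed class II chains H2-Aa and H2-Ab1 per kilobase by log2 ratios of 2.14, 2.11 and 1.91 in mice 1, 2 and 3 (2.05 ± 0.13, SD, n = 3), a 4.15-fold difference with p = 0.25 in the exact sign-flip permutation test and 0.40 after adjustment. The log2 ratio was 2.76 with the length of all annotated exons and 2.71 with no division by length. The lowest ratio, that of mouse 3, combined the lowest heavy chains with class II levels near those of mouse 2. In descending order per kilobase the members were H2-K1, H2-D1, B2m, Tapbp, H2-T23, Tap1, Tap2, H2-Aa, Cd74 and H2-Ab1. Neighbours in this order differed by no more than the SD of their log2 ratio for H2-D1 and B2m, Tap1 and Tap2, H2-Aa and Cd74, and Cd74 and H2-Ab1. The median rank of the 10 genes per kilobase was 1720 of 17475.

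**Figure D3:**
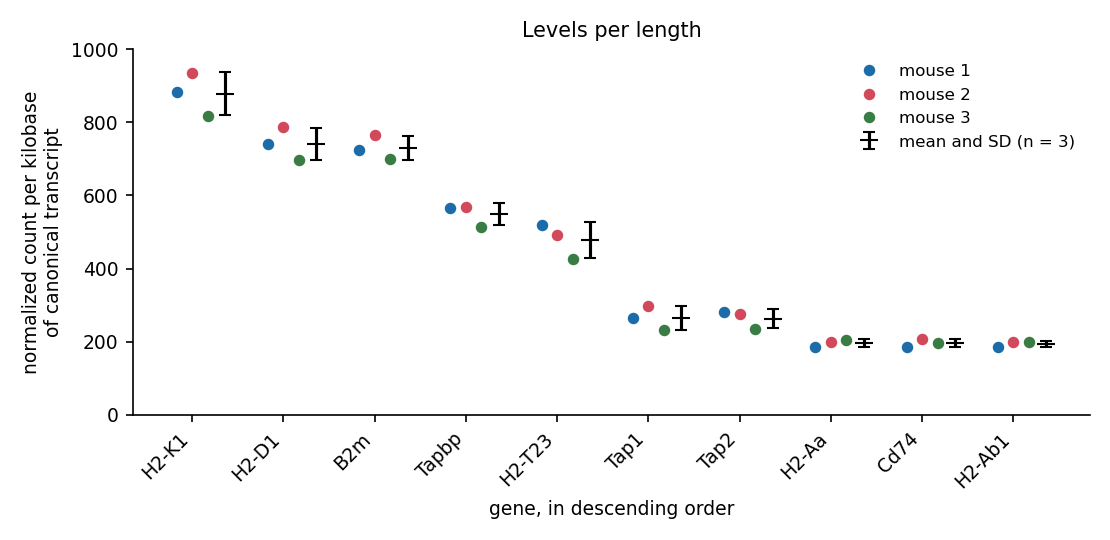
Normalized count per kilobase of canonical transcript (linear axis from 0) for the 10 genes in descending order, with points for the 3 mice and the mean and SD in black. The order runs from 878 for H2-K1 to 194 for H2-Ab1, with the 3 class II genes level at the low end.

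These levels had been counted after duplicate removal, which keeps a single read of those that start at the same base of the same strand when reads are single-ended. The members' mean depth per base of canonical transcript therefore bears on how far a level could rise. H2-K1 had 0.878 reads per base, H2-D1 0.742, B2m 0.730 and Tapbp 0.550. In contrast, the transporter subunits had 0.264 each and the class II genes between 0.195 and 0.196. Thus 4 of the 10 members had over 0.5 reads per base, against 5.89% of the 9356 genes of known length that averaged 200 or more, whose median was 0.177 and of which 14 exceeded 1. How many reads of the class I genes were removed as duplicates was not tested. Ratios among these genes, and ratios of them to less abundant ones, apply to the counts after removal.

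None of the 10 members had a coefficient of variation between mice over 20%. Of the 9358 genes that averaged 200 or more 8.00% did, a share at which few or none of 10 genes would pass. The members' values ran from 4.29% for H2-Ab1 to 12.4% for Tap1. The part of duplicate removal in this spread was not tested. The median over the members was 5.71%, and over the 9358 genes 7.37%. Counting alone would give between 2.47% for Tapbp and 6.72% for H2-Aa, and 7 of the 10 exceeded their counting value, as did 81.7% of the 9358 genes. The 3 exceptions were Cd74, H2-Aa and H2-Ab1, for which the spread between mice was no larger than that of counting.

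Class I and class II genes differed in the mouse with the lowest value. All 7 class I pathway genes were lowest in mouse 3, against 39.0% of the 9358 genes averaging 200 or more, and all 3 class II genes were lowest in mouse 1, against 32.2%. Each count was the same with the libraries scaled to equal totals and by trimmed means of log ratios. The members do not vary independently, and transcript length moved with these counts. Among genes with canonical transcripts of up to 1000 bases, 79.6% were lowest in mouse 3, and the share was 68.8%, 43.9% and 23.7% in successively longer classes and 12.2% among genes over 8000 bases. The median reads per base fell over the same classes, from 0.444 in the shortest to 0.0806 in the longest. Estimated depth was highest in mouse 3, at about 7566000 reads, and lowest in mouse 2, at about 6755000. The members are short, from 1086 to 3976 bases, and 51.0% of the 4907 genes over 1000 and up to 4000 bases were lowest in mouse 3. Of the 1402 genes over 1000 and up to 2000 bases, the class that holds all 3 class II genes, 16.6% were lowest in mouse 1. For each class II gene the spread between mice was no larger than that of counting, so its lowest mouse is not resolved beyond counting.

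On the log2 scale with a pseudocount of 0.5, mouse 3 differed from the mean of mice 1 and 2 by -0.28 for Tap1, -0.25 for H2-T23, -0.24 for Tap2, -0.15 for H2-K1, -0.14 for Tapbp, -0.13 for H2-D1 and -0.09 for B2m. The medians of the length classes concerned were -0.12 from over 1000 to 2000 bases and -0.05 from over 2000 to 4000 bases. Hence 6 of the 7 class I genes lay below the median of their class, by 0.03 for H2-K1 up to 0.23 for Tap1, and B2m lay 0.03 above it. The corresponding difference was 0.11 for H2-Aa, 0.05 for H2-Ab1 and -0.01 for Cd74, all above the median of their class. A median divides the genes of its class evenly, and the spread within a class was not examined. Places above or below it therefore do not set the members apart from other genes of their length. The parts of transcript length, reads per base and library depth in the class I pattern were not tested. Nor was the part of the difference in Xist and Ddx3y in the lower class II values of mouse 1. With a single such mouse that part cannot be told apart from other differences of mouse 1.

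**Figure D4:**
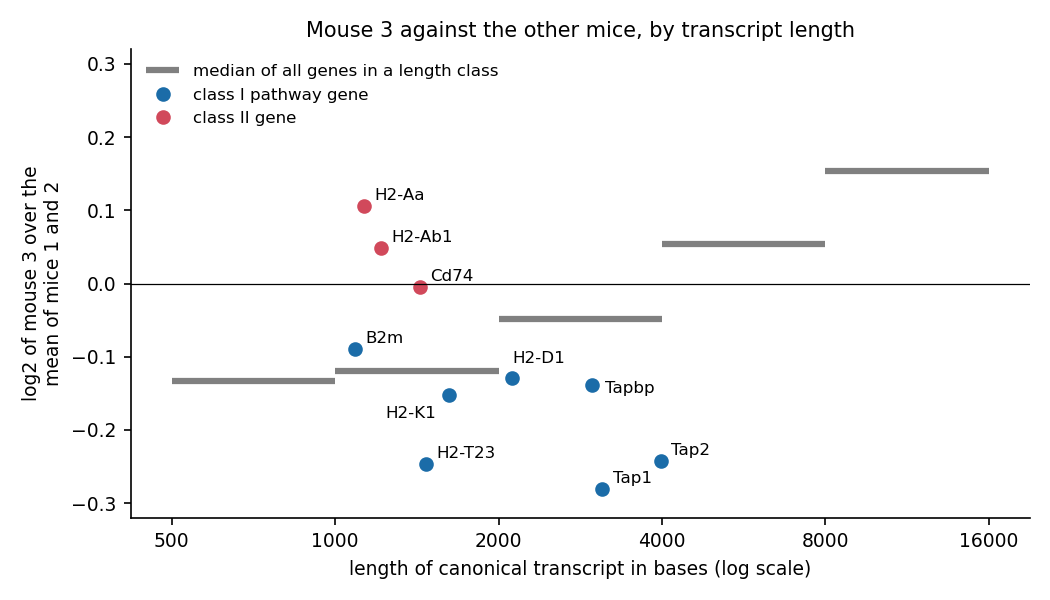
Log2 of the value in mouse 3 over the mean of mice 1 and 2 against the canonical transcript length in bases (log axis), for the 7 class I pathway genes (blue) and the 3 class II genes (red), with the medians of all genes averaging 200 or more in 5 length classes in grey. The outermost classes, up to 1000 and over 8000 bases, have no outer bound and are drawn as wide as their neighbours. The medians rise from -0.13 to 0.15 with length, and the class II genes lie above the median of their class.

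The remaining genes of peptide processing and loading ranged from 187 to 1823 in mean normalized counts. All 14 on the list were in the table, 13 with a mean of at least 200, and 12 of these 13 were lowest in mouse 3, against the 39.0% of all genes averaging 200 or more and the length-dependent shares given above. The immunoproteasome subunits, which replace the constitutive catalytic subunits under interferon, had means of 711 ± 62.4 for Psmb8, 618 ± 68.5 for Psmb9 and 629 ± 58.0 for Psmb10 (SD, n = 3). The constitutive subunits Psmb6 and Psmb7 had 567 ± 38.9 and 551 ± 19.0, and Psmb5, with 42.9% of its windows copied elsewhere, 187 ± 12.3. Per kilobase Psmb9 stood at 457 and Psmb6 at 547, Psmb10 at 479 and Psmb7 at 475, and Psmb8 at 418 beside 110 for Psmb5. The proteasome activator subunits Psme1 and Psme2 had 649 ± 44.1 and 453 ± 29.5, the latter with 52.7% of windows copied.

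Among the chaperones of the loading complex, the lectins Calr and Canx had means of 1319 ± 91.2 and 1823 ± 164, and the disulfide isomerase Pdia3 had 1340 ± 77.3 (SD, n = 3). The tapasin-related editor Tapbpl had 687 ± 72.2. Erap1, which trims peptides in the endoplasmic reticulum, had 1121 ± 112. The related aminopeptidase Lnpep had 1380 ± 62.2 and was the member of the list with a mean of at least 200 that was not lowest in mouse 3, with 1351, 1337 and 1451. The median of the list per kilobase was 437, against 371 for the 10 members and 73.0 for all genes of the table.

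Of 25 other class I and class I-like heavy chains, 14 were in the table, 8 of them with a mean of at least 200, and 6 of these 8 were lowest in mouse 3, against 39.0% of all genes averaging 200 or more and 51.0% of those over 1000 and up to 4000 bases. H2-Q4 was the most abundant, with 1298, 1319 and 1125 normalized counts (1247 ± 106, SD, n = 3), and 17.4% of its windows had a copy. Fcgrt, the neonatal receptor for immunoglobulin G and albumin, had 1192, 988 and 924 (1035 ± 140). Hfe, which takes part in the regulation of iron uptake, had 847 ± 85.7, and H2-T24 had 823 ± 135. H2-T22, a ligand of some gamma-delta T cells, had 814 ± 82.0. Of its 1743 windows 481 (27.6%) were copied, 377 of them in H2-T10. H2-Q6 and H2-Q7 had 179 ± 21.1 and 178 ± 27.5, and with 80.1% and 75.2% of their windows copied these values rest on the small remainder of each transcript. H2-T3, H2-T9, H2-T26, H2-Q1, H2-Q2, H2-Q8, H2-Q9, H2-M2, H2-M9, H2-L and Cd1d2 were not in the table, in which every gene reached at least 4 in some mouse. Their absence is not evidence of low RNA, since reads that map to several places had been removed before counting.

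Most other genes of the class II pathway were less abundant than the 3 members, with Ctsl and Lgmn above them. Of 14 on the list 11 were in the table, with a median of 66.7 normalized counts. H2-Eb1, the beta chain of the I-E molecule, had 173, 177 and 173 (174 ± 2.31, SD, n = 3). Its alpha chain H2-Ea, which C57BL/6 mice do not express because of a deletion in its promoter, was not in the table, nor were H2-Eb2 and H2-Oa. H2-DMa and H2-DMb1, which together exchange the invariant chain peptide for antigen, had 67, 60 and 61 and 71, 69 and 60, and H2-DMb2 had 0, 3 and 4. H2-Ob, a chain of the inhibitor of that exchange, had 66, 38 and 47. Among lysosomal enzymes, Ctss, the protease that cleaves the invariant chain in professional antigen-presenting cells, had 52, 79 and 58, and Ifi30, a thiol reductase, had 139, 178 and 168. Lgmn had 493, 653 and 638. Ctsl, a protease of many cell types, had 1178, 1055 and 1000. Marchf1, a ubiquitin ligase that takes class II off the surface, had 4, 7 and 9, and Cd83, which opposes it, had 149, 93 and 85.

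Leukocyte markers were mostly lower in mouse 1, as were the class II genes within the spread of counting. Of 25 markers 21 were in the table, and 14 of these 21 were below both other mice in mouse 1, as were 33.1% of the 17583 genes. Without Zbtb46, which endothelial cells also express and which had 1512, 1340 and 1386 normalized counts, the other 20 summed to 1127, 1656 and 1527, or 78.4%, 115% and 106% of their mean over mice. The class II genes summed to 697, 760 and 752, or 94.7%, 103% and 102%. Lyz2, the lysozyme of myeloid cells, had 188, 224 and 240, the macrophage receptor Mrc1 121, 225 and 188, and the complement chain C1qa 142, 165 and 142. Ptprc, the pan-leukocyte antigen CD45, named after its values were seen, had 94, 190 and 154. The B cell marker Ms4a1, the dendritic cell marker Xcr1 and the T cell chains Cd3e and Cd3d were not in the table. Fibroblast markers summed to 81.6%, 106% and 112% of their mean and mural cell markers to 76.6%, 106% and 117%. The part of leukocytes and other cells in the class II levels was not tested.

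**Figure D5:**
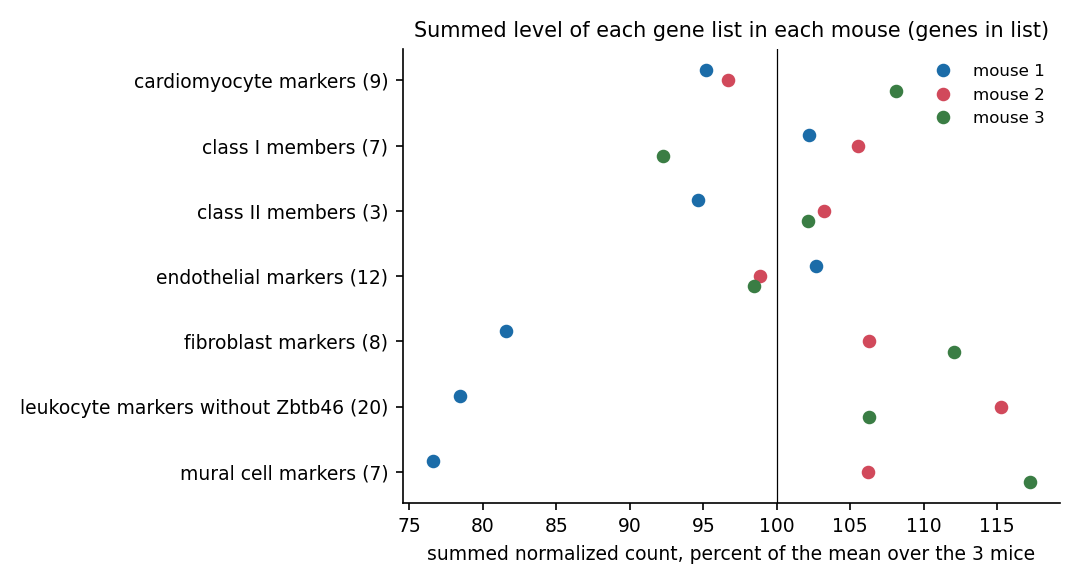
Summed normalized count of each gene list in mice 1, 2 and 3, in percent of the list's mean over the 3 mice, with the number of genes in the table in parentheses. Class II sums lie at 94.7%, 103% and 102%, leukocyte marker sums at 78.4%, 115% and 106%, and class I sums at 102%, 106% and 92.2%.

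Endothelial markers were abundant in the libraries, and without an input library their enrichment was not measured here. All 12 endothelial markers were in the table at means between 1004 for Cldn5 and 4919 for Flt1, and their sums stood at 103%, 98.9% and 98.5% of the mean over mice. Of the 12, 7 were lowest in mouse 3, against 39.0% of all genes averaging 200 or more and the length-dependent shares given above. Cardiomyocyte markers were also abundant, with Myh6 at 3591 ± 144 and a median of the 9 markers of 575 per kilobase, against 711 for the endothelial list. Both medians apply to counts after duplicate removal, in which reads per base reached 0.820 for Myl2 and 0.812 for Eng. How far that removal brought the 2 lists together was not tested. Of these 9 markers 6 were lowest in mouse 3, against the same shares, while their sums stood at 95.2%, 96.7% and 108% of the mean. These sums lean on Ttn, the gene with the highest mean of the table, which had 7379, 7743 and 10190. The sums therefore do not stand for most markers of the list. A read was worth 0.977, 1.06 and 0.961 normalized counts, so the depth on listed genes was about 7320000, 6755000 and 7566000 reads.

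Regulators of these genes were detected with a wide range of levels. Nlrc5, the transactivator of class I genes, had 274, 332 and 381 normalized counts (329 ± 53.6, SD, n = 3), highest in mouse 3. Its canonical transcript has 7578 bases, and in the class over 4000 and up to 8000 bases 23.7% of genes were lowest in mouse 3. Ciita, the transactivator of class II genes, had 17, 19 and 31 (22.3 ± 7.57). The subunits of the RFX complex, which binds the promoters of both classes, had means of 349 ± 11.5 for Rfx5, 685 ± 77.0 for Rfxap and 409 ± 47.4 for Rfxank. Of the NF-Y subunits, which bind CCAAT boxes, Nfya had 1032 ± 40.0, Nfyb 675 ± 42.8 and Nfyc, with 48.3% of windows copied, 196 ± 10.2. Creb1 had 1339 ± 97.8. The interferon regulatory factor Irf1 had 1219, 1149 and 1001 and Irf2 had 1053, 1006 and 954, each lowest in mouse 3. The NF-kB subunits had means of 1254 ± 43.4 for Rela and 1351 ± 83.5 for Nfkb1.

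The promoters of 7 members were held by the RefSeq table (GRCm38.p6), and 4 that carry short motifs bound by these factors are printed. Each line gives the 250 bases before the annotated start, with motifs on either strand in capitals. These are the CCAAT box, the core TGACG bound by CREB factors, the sequence GGGGATTCC of the class I kappa B site, and a pair of GAAA separated by any 2 bases, as in interferon-stimulated response elements. For H2-K1, which has 2 annotated starts, the line belongs to the downstream start.
H2-K1, chr17:34000334-34000583, minus strand: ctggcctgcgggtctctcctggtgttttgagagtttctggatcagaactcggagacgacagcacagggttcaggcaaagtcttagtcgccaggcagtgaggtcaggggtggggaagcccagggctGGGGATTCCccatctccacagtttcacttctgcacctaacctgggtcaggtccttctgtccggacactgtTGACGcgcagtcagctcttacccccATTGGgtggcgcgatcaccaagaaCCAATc
H2-D1, chr17:35262844-35263093, plus strand: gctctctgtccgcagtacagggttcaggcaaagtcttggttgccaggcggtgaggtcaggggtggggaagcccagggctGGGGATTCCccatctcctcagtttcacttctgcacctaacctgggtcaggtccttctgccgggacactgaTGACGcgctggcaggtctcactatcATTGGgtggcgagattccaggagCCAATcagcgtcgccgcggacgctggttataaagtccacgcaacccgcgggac
B2m, chr2:122147437-122147686, plus strand: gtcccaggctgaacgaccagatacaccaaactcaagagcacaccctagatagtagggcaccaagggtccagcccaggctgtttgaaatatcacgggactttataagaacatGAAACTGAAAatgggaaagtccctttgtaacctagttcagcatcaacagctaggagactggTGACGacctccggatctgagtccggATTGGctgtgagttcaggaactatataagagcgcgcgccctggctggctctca
H2-Aa, chr17:34287824-34288073, minus strand: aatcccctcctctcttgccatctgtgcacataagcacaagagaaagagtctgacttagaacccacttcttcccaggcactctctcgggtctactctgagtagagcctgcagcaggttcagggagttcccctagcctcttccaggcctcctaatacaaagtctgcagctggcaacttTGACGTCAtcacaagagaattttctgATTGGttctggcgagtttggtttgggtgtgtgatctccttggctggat
CCAAT was present before the start in all 7 members and in 33.8% of 32851 promoters. TGACG was present in 5 of the 7, H2-K1, H2-D1, B2m, Tap1 and H2-Aa, and in 17.8% of promoters. In H2-K1, H2-D1 and B2m a CCAAT on the opposite strand began 25 bases after TGACG, and in H2-Aa 23 and 26 bases after its overlapping TGACG copies, which lie on opposite strands. H2-K1 and H2-D1 each held another CCAAT, 49 and 48 bases after TGACG. Tap1, whose promoter is not printed, lacked this spacing: counted from its start, CCAAT began at -222 and TGACG at -86. GGGGATTCC was present in H2-K1 and H2-D1, in each 70 bases before TGACG, and in 0.213% of promoters. The paired GAAA was present in B2m and H2-T23 and in 2.98% of promoters. These matches describe letters, and binding was not measured.

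Ligands that accompany antigen presentation were detected unevenly. The co-stimulators of naive T cells Cd80 and Cd86 were at 4, 6 and 6 and at 7, 11 and 13 normalized counts. Cd40 had 323, 412 and 307, and Icosl, the ligand of ICOS, had 318, 371 and 369. Cd274, the inhibitory ligand PD-L1, had 1139, 798 and 804 (914 ± 195, SD, n = 3), highest in mouse 1 and with a coefficient of variation of 21.4%. Cd276 had 308, 383 and 390 and Tnfsf9 had 68, 85 and 79, whereas Pdcd1lg2 and Tnfsf4 were not in the table. Per kilobase Cd274 stood at 231, between Tap2 and H2-Aa.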

How the data were processed

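RNA-seq of ribosome-associated RNA was analysed from 3 EC-RiboTag hearts. Per the labels and the study's methods, the authors trimmed 72-base single-end reads with Trimmomatic 0.39, aligned them to mm39 (GRCm39) with STAR 2.7.11a, removed duplicates with Picard 3.1.1, also left out reads with several mapping positions and those of ribosomal or mitochondrial RNA, counted exonic reads on the correct strand with featureCounts 2.0.4, leaving out reads that overlap several genes, and normalized with DESeq2 1.36.0. The deposited values are such normalized counts rounded to whole numbers, treated here as a score and not as raw counts, so no count model was fitted and the spread between mice is given as SD or coefficient of variation.

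Genes were compared within each mouse as log2 ratios per kilobase of the canonical GENCODE transcript of GRCm39, whose annotation is newer than the authors', and the ratios were tested with an exact two-sided sign-flip permutation test, adjusted over 8 pairs. This test asks whether the log2 ratios of a pair lean in a common direction in these 3 samples, which the labels call biological replicates. Its exact permutation p-values do not measure the spread between the samples. The smallest p was 0.25 with 3 mice and 0.5 with 2. Depth was estimated from the worth of a read between values of 5 and 120. With it, counting alone left between 2.47% and 6.72% of relative error in a member. Exact copies of windows were sought in the whole genome. Windows across splice junctions were also compared with the canonical transcripts of the other genes of the table. The code was tested on simulated data. Alternatives were other lengths, scalings (trimmed means with 30% of ratios and 5% of levels trimmed) and limits. The rule for named genes covered the members, lists of up to 14 genes, the 4 most abundant genes of longer lists, list genes not in the table, Xist and Ddx3y, and genes sharing a window with a class I member. Of the endothelial, cardiomyocyte, fibroblast and mural markers few are named and the rest are given as sums, and 1 regulator and the motif that belongs to it are not reported here. Likeness of pattern named no gene, because a single condition holds no pattern. The members and lists were chosen with earlier results of these data known. Python 3.11.15, numpy 2.4.6, pandas 2.3.3, numba and matplotlib 3.10.9 were used.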

Additional observations from a re-analysis of the deposited data

How the results depend on the processing

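The log2 ratios of H2-K1 to H2-T23, of B2m to the classical heavy chains, of Tapbp to Tap1 and of class I to class II chains kept their direction under every length and with each mouse left out. Their size still moved with the length, to -0.30 with the coding length and -1.92 with no division by length for B2m, and to 2.76 with all annotated exons and 2.71 with no division by length for class I to class II. The other 4 ratios reversed with the length of all annotated exons, no division by length and, added after seeing the data, the coding length: -0.23, -0.14 and -0.17 for H2-K1 to H2-D1, -0.69, -0.35 and -0.40 for Tap1 to Tap2, 0.83, 0.093 and 0.043 for H2-Ab1 to H2-Aa, and 1.11, 0.34 and 0.22 for Cd74 to H2-Aa. With a mouse left out they ranged from -0.049 to 0.047 for Tap1 to Tap2, from -0.023 to 0.0088 for H2-Ab1 to H2-Aa and from -0.035 to 0.033 for Cd74 to H2-Aa. The median rank of 1720 became 1252 with all annotated exons and 3050 with no division by length, because only the length differs. A limit of variation of 10%, added after seeing the data, was passed by 2 members, H2-T23 and Tap1. The share of all genes over that limit was not counted, so the 2 members are not set apart from other genes. The median coefficient of variation of the 9358 genes averaging 200 or more was 7.37%. Each ratio paired 2 genes, or sums of genes, within a mouse. No groups of libraries could be compared, because the 3 libraries form a single group. With 3 mice no pair could reach p below 0.25, so the tests say nothing about stability.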
